A study of Mus musculus with 4 samples.

Results

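Prostaglandins are short-lived lipid messengers made from arachidonic acid that phospholipases release from membranes. The cyclooxygenases Ptgs1 and Ptgs2 convert it to prostaglandin H2, terminal synthases turn that into prostaglandin E2 or D2, G protein-coupled receptors read the product at the cell surface, and Hpgd begins its breakdown. In the brain this system is known for fever, pain, blood flow and inflammation, and Ptgs2 is also known as a gene that excitatory neurons induce with synaptic activity. The genes described here were 10 that were listed by name: the cyclooxygenases Ptgs1 and Ptgs2, the prostaglandin E synthases Ptges, Ptges2 and Ptges3, the prostaglandin D synthase Ptgds, the prostaglandin E receptors Ptger1, Ptger3 and Ptger4, and Hpgd. They had 18 probes of the 56605 on the array. Of these, 16 probes were well above background on all 4 arrays and 2 were on none, and each of the 10 genes kept at least 1 probe, among 20655 genes measured out of 27248.

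The tissue was prefrontal cortex of B6J mice aged 3 months. From postnatal day 21 they were kept on starch or on sucrose chow for some 70 days, and they were wild-type or heterozygous for Glo1, which encodes the methylglyoxal-detoxifying enzyme glyoxalase 1. The 4 groups were thus wild-type on starch (named as the control in the labels), wild-type on sucrose, Glo1 heterozygous on starch and Glo1 heterozygous on sucrose. RNA of 3 mice per group was mixed, and 200 ng of the mix was labelled with Cy3 and hybridised to 1 Agilent array. The mixing hides the spread between mice and there is 1 array per group, so no difference between 2 arrays has a biological replicate check, and array position and group cannot be told apart.

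Levels are the processed signal as a multiple of the array's 75th percentile, which lay between 1780.4 and 1928.9 intensity units on the 4 arrays. Between 77.6% and 80.2% of spots were well above background, and 0 were saturated. Glo1, the gene whose heterozygosity defines the genotype, was at 4.04 and 5.53 on the wild-type arrays (starch, then sucrose) and at 2.74 and 3.04 on the heterozygous ones, the order that the labels give. In marker lists, the cortical excitatory neuron genes, all 10 well above background, summed to 80.5 and 105 on the wild-type starch and sucrose arrays and to 95.8 and 99.5 on the heterozygous ones. The choroid plexus list summed to 17.0, 18.3 and 16.4 on the first 3 arrays and to 105 on the heterozygous sucrose array, where Ttr, the transthyretin gene typical of that tissue, was at 58.7 against 0.101 to 1.42 elsewhere. Blood cell genes summed to 278, 135, 236 and 153 and striatal genes to 34.2, 56.4, 52.5 and 29.4, in the order wild-type starch, wild-type sucrose, heterozygous starch, heterozygous sucrose, which is used below for every set of 4 values. The part of these marker differences in the values below was not tested. In bulk tissue, fewer cells of a type and less RNA per cell cannot be told apart.

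Where a gene had several probes they did not always give the same picture, so the probes are shown first. The array probes are 60 bases long, and the first 30 bases of the probes of Ptges, Ptger3 and Ptger4 that are compared below are given here 5′ to 3′ with their mm9 coordinates.
Ptges A_55_P1974193, chr2:30744995-30745054, minus strand: atgataaaggactaaacctctgaacctgta
Ptges A_51_P312327, chr2:30747838-30747897, minus strand: gccacttacagatgagctgtcaagatttga
Ptges A_55_P1974189, chr2:30748214-30748273, minus strand: aaccctctgatcgcctggatacatttcctc
Ptger3 A_51_P520718, chr3:157307508-157307567, plus strand: ctaaatgttcagctagagctgttaaaagga
Ptger3 A_55_P1975481, chr3:157268044-157268103, plus strand: accagatcttggatccctgggtttatctgc
Ptger3 A_66_P127721, chr3:157308072-157308131, plus strand: ggtaaagactatcatcagaggaatgtccat
Ptger4 A_55_P2747136, chr15:5183422-5183481, minus strand: ctgatactgatatgattttaaagcgtagct
Ptger4 A_51_P207988, chr15:5184419-5184478, minus strand: aagcacattggctgtcattctgatgtgact
The brightest Ptges probe lies 2843 bases from A_51_P312327, the next probe of that gene, and the remaining pair lies 376 bases apart.

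The upstream sequences of Ptgs2, Ptger3 and Ptger4 are shown because these were, with Ptger1, the members that differed by 1.5-fold or more between the wild-type diets. RefSeq promoter entries (GRCm38.p6) matched 9 of the 10 genes, and the 250 bases before the transcript start are printed on the gene's strand. Capitals mark the matches to 9 motifs searched on either strand.
Ptgs2, chr1:150099781-150100030, plus strand: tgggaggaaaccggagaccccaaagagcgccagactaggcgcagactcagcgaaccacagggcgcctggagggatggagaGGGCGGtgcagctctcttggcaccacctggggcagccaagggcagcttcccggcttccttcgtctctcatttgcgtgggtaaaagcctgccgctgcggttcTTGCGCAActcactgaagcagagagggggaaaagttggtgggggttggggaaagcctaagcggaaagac
Ptger3, chr3:157566626-157566875, plus strand: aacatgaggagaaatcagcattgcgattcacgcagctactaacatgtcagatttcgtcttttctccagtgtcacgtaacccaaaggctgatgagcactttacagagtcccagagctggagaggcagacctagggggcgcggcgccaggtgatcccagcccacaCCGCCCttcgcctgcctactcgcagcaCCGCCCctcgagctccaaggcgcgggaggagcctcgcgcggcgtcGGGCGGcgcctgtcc
Ptger4, chr15:5244188-5244437, minus strand: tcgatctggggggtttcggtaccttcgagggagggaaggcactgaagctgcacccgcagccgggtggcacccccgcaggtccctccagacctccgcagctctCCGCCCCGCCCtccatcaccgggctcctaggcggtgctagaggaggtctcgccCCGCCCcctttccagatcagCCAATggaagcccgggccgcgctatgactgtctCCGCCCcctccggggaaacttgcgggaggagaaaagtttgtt
The Ptgs2 sequence holds the GC box GGGCGG at -170 to -165 and the C/EBP motif TTGCNNAA, written there as TTGCGCAA, at -69 to -62, counting the base before the start as -1. That palindromic match reads the same on both strands. Ptger3 holds 3 GC boxes and Ptger4 holds 4, of which a pair overlaps by 1 base at -148 to -143 and -143 to -138, and Ptger4 also has the CCAAT box CCAAT at -75 to -71. Of 27025 promoter windows of this length, 32.9% hold a GC box, 34.5% a CCAAT box and 9.55% the C/EBP motif. The other motifs were the cAMP response element TGACGTCA (1.62% of windows) and its shorter form TGACG (17.9%), contained in the full element, the AP-1 motif TGANTCA (6.87%), the E-box CACGTG (6.05%), the TATA motif TATAAA (13%) and the Egr motif GCGNGGGCG (4.65%). None of these 6 matched in the 3 printed windows. Bases after the annotated start were not searched, so a match there would be missed. Of the other members, Ptgds had an AP-1 match at -35 to -29 and Ptges2 an E-box at -77 to -72.

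The first comparison asks how the sucrose diet differs from starch in wild-type mice. The inducible cyclooxygenase Ptgs2 was lower on sucrose and the receptors Ptger1, Ptger3 and Ptger4 were higher, while the brightest probes of the 4 synthases differed between the diets by at most -0.22 on the log2 scale. Counted by the brightest probe, 0 of 10 genes reached 2-fold, against 1.48% of all genes. At 1.5-fold, a threshold added after the values were known, 4 of 10 did against 5.93% of all genes. Of these, 3 were higher, as were 2.4% of all genes, and 1 was lower, as were 3.53%. That count depended on the processing of dim probes: it was 2 (Ptgs2 and Ptger1) with the mean over a gene's probes and 1 (Ptgs2) with the normexp background correction, which adds an offset of 50 intensity units. The median over the 10 genes was -0.07, and over all genes it was near 0 at -0.0007. With 1 array a side this is a description of these arrays. Between the same arrays, 10 of 10 cortical excitatory neuron markers (median 0.27) and 10 of 10 striatal markers (median 0.99) were higher on sucrose, and 10 of 10 blood cell markers were lower (median -1.17). Of 11 choroid plexus markers, 9 were higher and 2 lower (median 0.34), from -2.11 for Aqp1 to 2.46 for Ttr. Their part in the members' differences was not tested.

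In Glo1 heterozygous mice the same diet comparison left only Ptger4 at 1.5-fold or more, 1 of 10 genes against 5.57% of all genes, and 0 with the mean over probes or with normexp. Again 0 of 10 reached 2-fold, against 1.77%. Heterozygous against wild-type on starch gave 0 of 10 at 2-fold (0.813% of all genes) and 1 of 10 at 1.5-fold (3.97%), which was Ptger1, and 0 with normexp. On sucrose the genotype comparison gave 0 of 10 at 2-fold (1.71%) and 0 at 1.5-fold (4.58%). Between the arrays that differ in both factors, heterozygous sucrose against wild-type starch, 0 of 10 reached 2-fold (2.0%) and 2 of 10, Ptger1 and Ptger4, reached 1.5-fold (7.32%). The 1.5-fold count was 1 (Ptger1) with the mean over probes and 0 with normexp. The interaction is the diet difference of the heterozygous pair minus that of the wild-type pair. It reached 1 in size on the log2 scale for 0 of 10 genes (2.88%) and 0.58 for 2 of 10 (8.45%), Ptgs2 upward and Ptger1 downward. With normexp only Ptgs2 reached 0.58. These comparisons share arrays and are not independent of each other. Between the heterozygous diet arrays, 11 of 11 choroid plexus markers were higher on sucrose (median 3.68). Striatal markers were lower in 10 of 10 (median -0.99) and blood cell markers in 9 of 10 (median -0.67). For the interaction the choroid plexus median was 3.71 and the striatal median -2.02. The part of these markers in the members' differences was not tested.

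**Figure D1:**
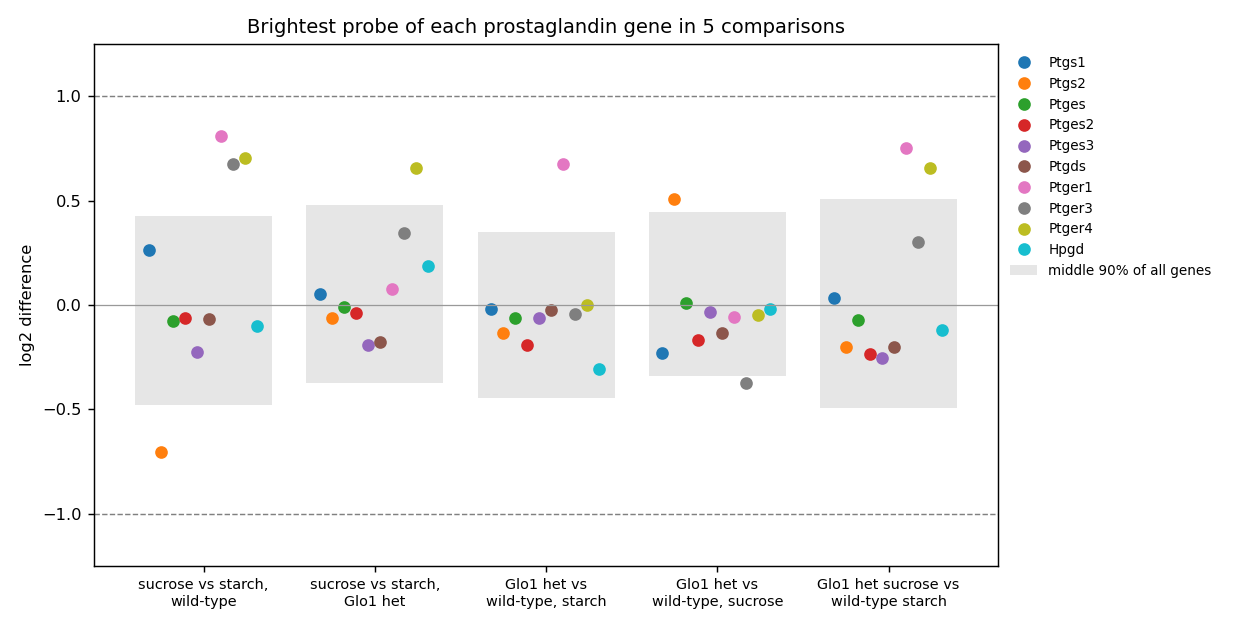
Log2 difference (y axis) of the brightest probe of each of the 10 genes in 5 comparisons of single arrays (x axis). Points are genes, grey bars span the middle 90% of 20655 genes and dashed lines mark 2-fold. No point crosses a dashed line, and in wild-type mice Ptger1, Ptger3 and Ptger4 lie above the grey bar and Ptgs2 below it.

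A model with diet and genotype as additive factors, fitted with limma over 42094 probes, is the test used here, with 1 residual degree of freedom before the variances are moderated. It called 0 probes for diet (0.0%) and 0 for genotype (0.0%) at an adjusted p of 0.05. Unadjusted p-values under 0.05 numbered 3704 for diet and 2704 for genotype. Over the members' 16 probes, limma's adjusted p ran from 0.532 to 0.928 for diet and from 0.733 to 0.948 for genotype. The lowest adjusted p of a member for diet was 0.116 with normexp and 0.157 with a trended prior variance. Unadjusted, 6 of the 16 probes were under 0.05 for diet and 0 for genotype, against 8.80% and 6.42% of all probes. Probes of 1 gene are not independent, and by the brightest probe 2 of 10 genes, Ptger3 and Ptger4, were under 0.05 for diet and 0 for genotype. The model treats the interaction as error, so a gene whose diet difference depends on genotype is hard to call with it.

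The cyclooxygenases come first in the pathway. Ptgs2 (A_51_P254855, chr1:151954744-151954803 in mm9), the inducible enzyme, was at 0.667, 0.409, 0.607 and 0.581 times the percentile. The wild-type sucrose array is the low one, and the other 3 lie close to each other. Sucrose minus starch was -0.71 in wild-type mice but -0.06 in heterozygous ones, and the interaction was 0.64. For scale, the SD of a difference between arrays that comes from repeated spots alone was 0.142 at this signal, which covers spot noise only and not mice, pooling or labelling. The wild-type diet difference was larger than 2 such SDs, as were 20.4% of the differences of all probes over the 5 comparisons. The diet coefficient of the additive fit, -0.38 with SE 0.194, had an adjusted p of 0.639 (limma).

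Ptgs1 (A_51_P279100, chr2:36107644-36107703), the constitutive cyclooxygenase that microglia are known to express, was at 1.45, 1.74, 1.43 and 1.48. Its highest value was on the wild-type sucrose array, where Ptgs2 had its lowest. The Ptgs1 diet difference was 0.26 in wild-type and 0.05 in heterozygous mice, with a repeat-spot SD of 0.0924. The summed level of the 12 microglial markers was 94.7, 87.6, 82.5 and 87.0, of which Siglech alone gave 46.3, 41.5, 37.8 and 42.3. The part of microglial content in the Ptgs1 values was not tested. A second, much dimmer Ptgs1 probe (A_55_P2720465) gave diet differences of 0.27 and 0.38, higher on sucrose in both genotypes.

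The prostaglandin E synthases act next. Ptges3, also known as the Hsp90 co-chaperone p23, was at 13.9, 11.9, 13.3 and 11.6, lower on both sucrose arrays than on both starch arrays. Its diet differences were -0.22 and -0.19 with a repeat-spot SD of 0.0670, and the diet coefficient of -0.21 had an adjusted p of 0.610 in limma's fit. Ptges2, a membrane-associated synthase, was at 2.91, 2.78, 2.55 and 2.47, so here the arrays separated by genotype. Heterozygous minus wild-type was -0.19 on starch and -0.17 on sucrose, with a repeat-spot SD of 0.0833. The genotype coefficient was -0.18 with an adjusted p of 0.733 (limma).

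Ptges, the inducible microsomal synthase that is known to work with Ptgs2, depended on the probe. The brightest, A_55_P1974193, was at 15.8, 15, 15.2 and 15.1 and was nearly flat, with diet differences of -0.08 and -0.01. The probe A_51_P312327 was at 0.197, 0.125, 0.161 and 0.125, lower on both sucrose arrays. Sucrose minus starch was -0.65 in wild-type mice and -0.36 in heterozygous ones, and the diet coefficient of -0.51 had SE 0.120 and an adjusted p of 0.533 (limma). The probe A_55_P1974189 was at 0.0663, 0.0484, 0.0510 and 0.0493, highest on the wild-type starch array only. The dim pair and the bright probe name the same transcript in the array's annotation, and which of them follows the Ptges messenger was not tested. With the mean over the 3 probes, the wild-type diet difference was -0.39 in place of -0.08.

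Ptgds makes prostaglandin D2, is also a carrier protein of cerebrospinal fluid, and is known to be made by meninges, choroid plexus and oligodendrocytes. It was printed 10 times per array, so its spot error is measured directly. Its level was 92.5 ± 2.60, 88.3 ± 3.20, 91.0 ± 6.41 and 80.4 ± 2.80 (SD over 10 spots of 1 array, technical). The heterozygous sucrose array was lowest. For diet the difference was -0.07 in wild-type mice and -0.18 in heterozygous ones, and heterozygous sucrose minus wild-type starch was -0.20. Under quantile normalization these became 0.0, -0.05 and 0.03, so the heterozygous sucrose array was no longer lowest. The choroid plexus list was highest on that array. The meningeal list summed to 17.9, 17.1, 19.1 and 19.7 and the oligodendrocyte list to 151, 144, 160 and 149. The part of these tissues and cells in the Ptgds values was not tested. The diet coefficient of Ptgds was -0.12 with an adjusted p of 0.737 (limma).

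**Figure D2:**
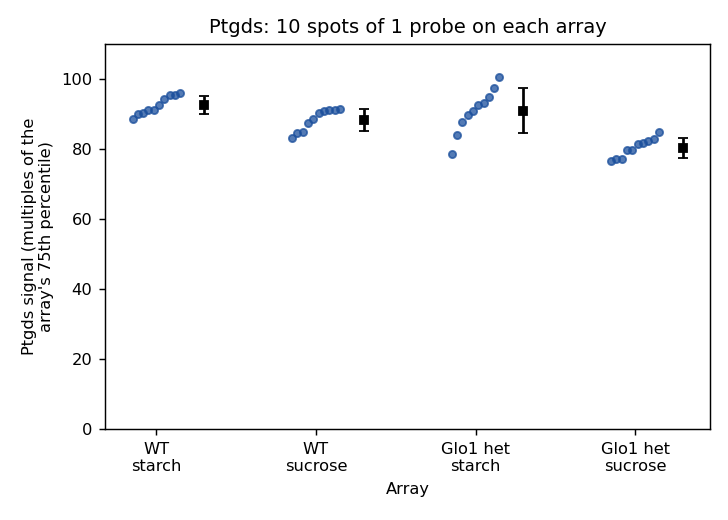
Ptgds signal in multiples of the array's 75th percentile (y axis) on each array (x axis). Blue points are the 10 spots sorted by value and black squares with bars are their mean and SD, which measures spots and not mice. The heterozygous sucrose array has the lowest mean, 80.4, and its spots overlap with the lowest spots of the wild-type sucrose and heterozygous starch arrays. Under quantile normalization it was 0.03 (log2) above wild-type starch.

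The prostaglandin E receptors are the cell-surface end of the pathway, and their probes were dim. Ptger4 encodes the EP4 receptor, which raises cyclic AMP. Its brighter probe, A_55_P2747136, was at 0.113, 0.185, 0.113 and 0.179, so both sucrose arrays lay above both starch arrays. Sucrose exceeded starch by 0.70 in wild-type mice and 0.66 in heterozygous ones, while the genotype differences were -0.00 on starch and -0.05 on sucrose. The diet coefficient was 0.68 with SE 0.0931, with an unadjusted p of 0.00293 and an adjusted p of 0.532 (limma), the lowest unadjusted p among the members. The dimmer probe A_51_P207988 gave diet differences of 0.33 and 0.41, in the same direction and smaller. The mean over both probes was 0.52 in wild-type and 0.53 in heterozygous mice.

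Ptger3 encodes the EP3 receptor, which lowers cyclic AMP and is known for its part in fever. Its brightest probe, A_51_P520718, was at 0.0882, 0.141, 0.0857 and 0.109. The sucrose array was the higher one in each genotype, by 0.67 in the wild-type pair and by 0.34 in the heterozygous pair. A_55_P1975481, a probe farther upstream in the same gene, gave 0.56 and 0.36. The heterozygous differences of both probes lay within 2 repeat-spot SDs of 0.212. A_66_P127721, which lies close to the first but names another transcript in the array's annotation, was at 0.0142, 0.0149, 0.0147 and 0.0154. It was the dimmest of the 3 and gave 0.07 and 0.07. So 2 of the 3 probes shared the pattern and the third was flat, and the mean over them put the wild-type difference at 0.44. The diet coefficients were 0.51 and 0.46 for the first 2 probes, with adjusted p of 0.536 and 0.532 in limma's fit.

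Ptger1 encodes the EP1 receptor, which raises intracellular calcium. It was at 22.40, 42.06, 37.86 and 40.90 intensity units, far below the 75th percentile, with levels of 0.0126, 0.0221, 0.0201 and 0.0212. The wild-type starch array is low and the other 3 lie together, so a single array sets every large difference of this gene. The wild-type diet difference was 0.81 and the heterozygous one was 0.08, and heterozygous minus wild-type was 0.68 on starch and -0.06 on sucrose. With the normexp background correction, whose offset of 50 is larger than the whole signal, the wild-type diet difference became 0.07. The diet coefficient of 0.44 had SE 0.216 and an adjusted p of 0.633 (limma).

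Hpgd, the dehydrogenase that inactivates prostaglandins, was at 0.350, 0.327, 0.283 and 0.322. The heterozygous starch array was lowest. Sucrose minus starch was -0.10 in wild-type and 0.18 in heterozygous mice, both within 2 repeat-spot SDs of 0.172. The order of its 4 arrays had no step larger than that.

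**Figure D3:**
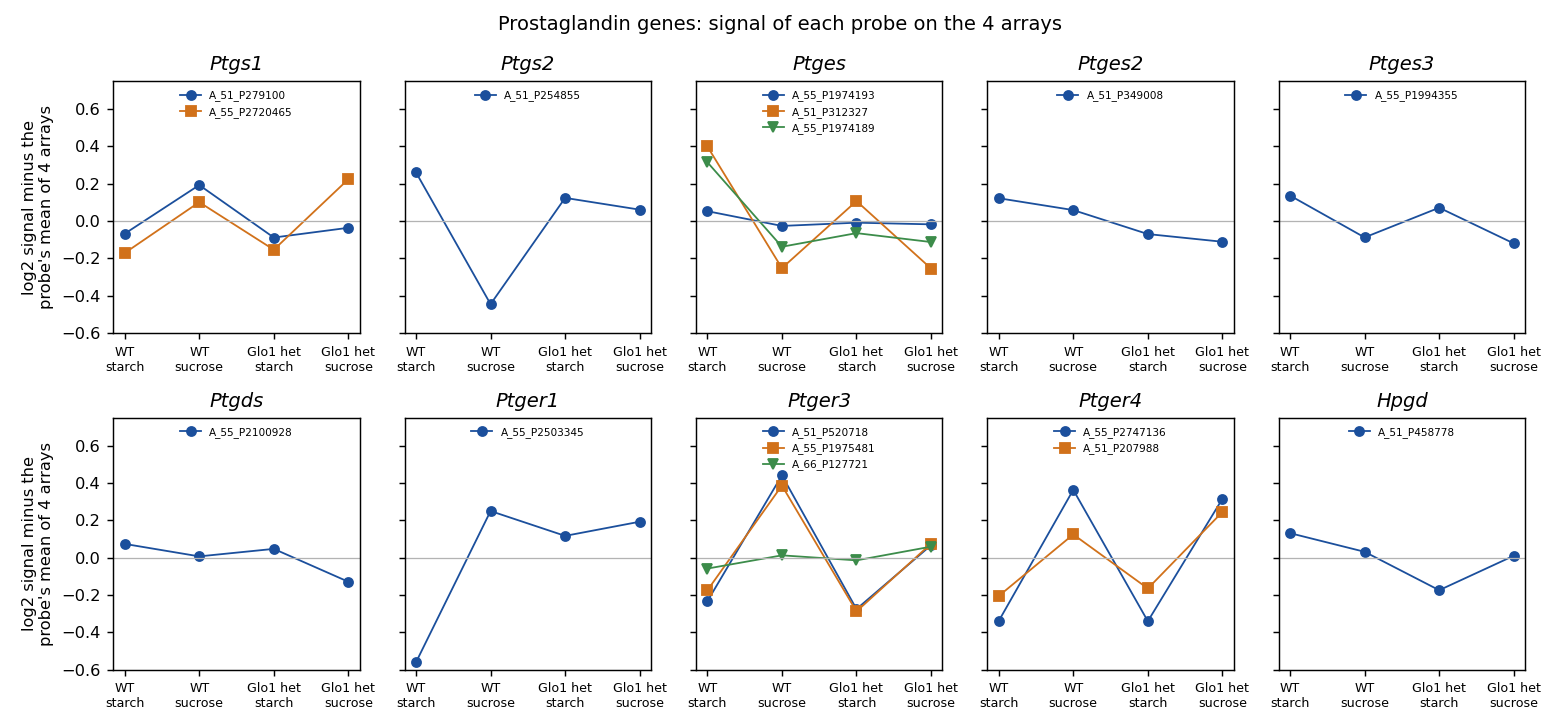
Log2 signal of each member probe minus that probe's mean over the 4 arrays (y axis), by array (x axis, WT is wild-type and het is heterozygous). Each colour is a probe, 16 in all. Both Ptger4 probes are higher on the sucrose arrays, Ptgs2 is low only on the wild-type sucrose array, Ptger1 only on the wild-type starch array, and the 3 Ptges probes spread apart.

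The rest of the pathway was read from a list of 41 other genes, of which 40 were on the array and 38 were measured on all 4 arrays. They include the phospholipases A2, the remaining prostanoid synthases and receptors, transporters and reductases. The list's medians were near those of all genes: -0.04 for diet in wild-type, -0.02 for diet in heterozygous mice, -0.04 for genotype on starch and 0.02 for genotype on sucrose. On the same order of comparisons all genes gave -0.0007, 0.0003, -0.02 and -0.02. In the wild-type diet comparison 1 of 38 genes was higher by 2-fold (0.484% of all genes) and 1 lower (0.992%), and in the heterozygous one 1 was higher (1.29%). Pla2g4e, a calcium-dependent phospholipase, was at 0.0902, 0.195, 0.0769 and 0.155, higher on both sucrose arrays by 1.11 and 1.01. Its second measured probe gave 1.29 and 0.55. Pla2g2e and Pla2g2f, secreted phospholipases, were dim. Pla2g2e was at 0.0256, 0.0127, 0.0170 and 0.0156, lower by -1.01 on sucrose in wild-type mice. Pla2g2f was at 0.0424, 0.0387, 0.0493 and 0.0870, highest on the heterozygous sucrose array, where it exceeded wild-type sucrose by 1.17. The other 6 prostanoid receptors of the list did not share a direction. Diet differences in wild-type and then heterozygous mice were -0.03 and 0.43 for Ptger2, the EP2 receptor, and 0.42 and 0.45 for Ptgfr, the prostaglandin F receptor. For the prostaglandin D receptors they were -0.10 and -0.50 (Ptgdr) and 0.11 and -0.02 (Ptgdr2). The prostacyclin receptor Ptgir gave -0.68 and -0.30, and the thromboxane receptor Tbxa2r gave 0.05 and 0.24.

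The leukotriene and lipoxygenase genes, which use the same arachidonic acid, had 14 of 16 genes measured. In the wild-type diet comparison 11 of 14 were lower on sucrose, against 10356 of all 20655 genes, and 0 reached 2-fold (1.48% of all genes). The list's median was -0.21, and -0.09 with brighter probes only. In heterozygous mice 7 were higher and 7 lower, with a median of 0.05. In heterozygous against wild-type mice on starch, 1 of 14 was lower by 2-fold (0.47% of all genes). It was Ltb4r1, a leukotriene B4 receptor with a dim probe, at 0.0370, 0.0242, 0.0170 and 0.0226, with a difference of -1.13.

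Among 18 genes known to regulate Ptgs2 or to be tied to its induction, the median diet difference was -0.08 in wild-type and -0.07 in heterozygous mice. Cebpd, a transcription factor of the family that binds the C/EBP motif, was at 1.64, 1.85, 1.60 and 3.29. The heterozygous sucrose array stands apart, with a diet difference of 1.04 in heterozygous and 0.17 in wild-type mice. That array is also the one with the high choroid plexus sum, whose part in this was not tested.

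Ptgs2 is often counted with the immediate early genes of neurons, so their 14 values were set beside it. The list was lower on sucrose in 13 of 14 genes in wild-type and in 14 of 14 in heterozygous mice, with medians of -0.51 and -0.77. Of all 20655 genes, 10356 and 10311 were lower. By 2-fold or more, 1 of 14 was lower in wild-type mice (0.992% of all genes) and 5 of 14 in heterozygous ones (0.479%). Egr2, an activity-induced zinc finger factor, was at 1.72, 0.695, 2.15 and 0.633, lower on sucrose by -1.30 and -1.76. Fos, the activity marker that forms AP-1 with Jun proteins, was at 1.89, 1.21, 2.28 and 0.968, with differences of -0.64 and -1.24. The other 3 past 2-fold in heterozygous mice were Fosb at -1.03, Egr1 at -1.11 and Arc at -1.01. In wild-type mice the Ptgs2 difference of -0.71 lay inside the list's span of -1.30 to 0.40. In heterozygous mice its -0.06 lay above the whole list, which spanned -1.76 to -0.16. The interaction was 0.64 for Ptgs2 and was negative for 12 of the 14 immediate early genes, against 10217 of all 20655 genes, with a median of -0.30 against 0.0026. Whether Ptgs2 differs from the list was not tested.

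**Figure D4:**
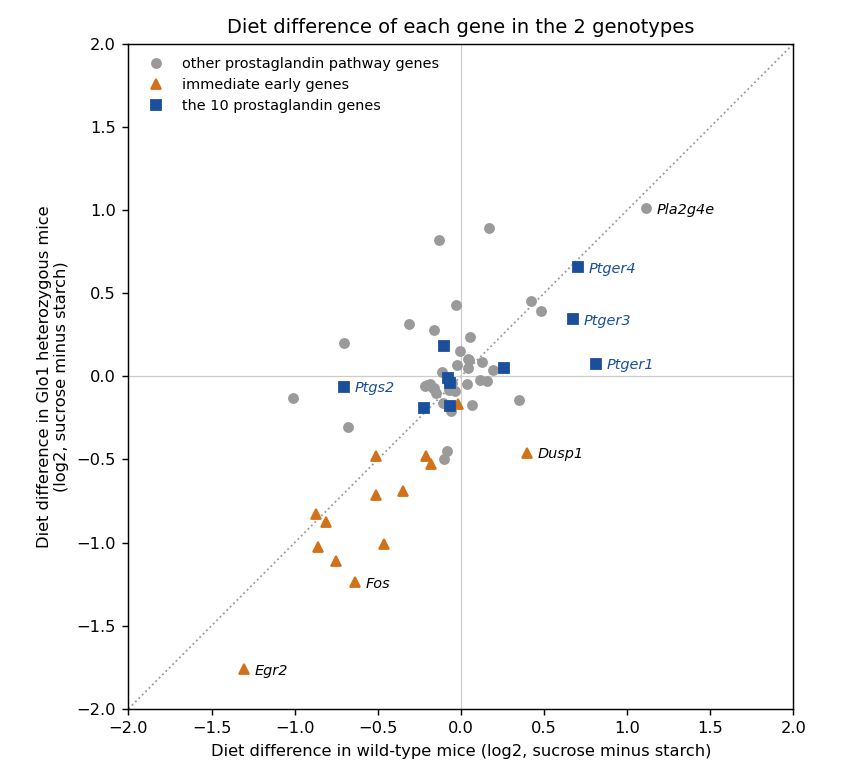
Sucrose minus starch (log2) in wild-type mice (x axis) and in Glo1 heterozygous mice (y axis). Blue squares are the 10 genes, grey circles the 38 other pathway genes, orange triangles the 14 immediate early genes, and the dotted line marks equal differences. Ptger4 lies near the line at 0.70 and 0.66, whereas Ptgs2 lies at -0.71 and -0.06, inside the wild-type span of the immediate early genes and above their heterozygous span, a difference that was not tested.

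The genes whose 4-array profile lay nearest to the 3 members with the widest range were found by Euclidean distance between mean-centred log2 levels over the 4 arrays, among 20654 genes. For Ptgs2 the nearest was Erdr1 at a distance of 0.0371, followed by A730036I17Rik, Casp1, 8430408G22Rik and Mug2. For Ptger3 it was 0610038B21Rik at 0.0461, then Allc, Ramp3, Krt12 and Gm4211. For Ptger1 it was Hmcn1 at 0.0546, then Gm9798, 9330104G04Rik, 9130007G19Rik and Adamts16.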

How the data were processed

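Total RNA from 4 pools was measured on 4 Agilent arrays, 1 per group. Per the file headers, Agilent Feature Extraction (version 11.5.1.1 in the submitters' processing notes) gave the deposited intensity values after background subtraction with detrending. The authors also deposited a ratio per spot, which equalled the processed signal divided by the file's 75th percentile, within 0.0137%.

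Each processed intensity was divided by the 75th percentile of all non-control spots on its array and put on the log2 scale. Outlier spots were left out and spots of a probe averaged. Probes well above background on all 4 arrays were kept, and the brightest probe stood for its gene. The additive fit used limma 3.58.1 (lmFit, eBayes, Benjamini-Hochberg) in R 4.3.3, checked on simulated data. Other steps used Python 3.11.15 with pandas 2.3.3. The number of arrays limits the precision.

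Members and gene lists were chosen with earlier results of these data known. Beyond the members, genes were named if they belonged to a pathway list and passed 2-fold, or lay nearest to a member's profile. The other prostanoid receptors and Ttr were named after their values were seen. The 1.5-fold count was added after no member passed 2-fold. The repeat-spot SD pools the 100 values nearest in signal from 317 probes printed 8 or more times. It was tried in 3 forms, all after the values were seen, and it is the same 0.212 for every dim member probe because few repeated probes are that dim.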

Additional observations from a re-analysis of the deposited data

Results flagged for a closer look

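Hpgd was singled out because its diet difference had opposite signs in the genotypes: lower on sucrose by -0.10 in wild-type mice and higher by 0.18 in Glo1 heterozygous mice, an interaction of 0.28 on the log2 scale. The difference between genotypes was not tested, since each group had 1 array, and neither diet difference exceeded 2 repeat-spot SDs.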

How the results depend on the processing

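Counts of members at 2-fold were 0 in each of the 5 comparisons and the interaction under each of 9 alternatives, but the restriction to brighter probes kept 7 of the 10 genes and left out Ptger1, Ptger3 and Ptger4. Likewise limma called 0 members for either factor under each alternative run. Over all probes, normexp gave 28 calls for diet and a trended prior variance gave 1, none of them members. At 1.5-fold, added after seeing the data, the counts became 4 and 1 for diet in wild-type and heterozygous mice, 1 for genotype on starch, 2 for heterozygous sucrose against wild-type starch and 2 for the interaction. With the mean over a gene's probes these became 2, 0, 1, 1 and 2, with normexp 1, 0, 0, 0 and 1, and with brighter probes only 1, 0, 0, 0 and 1 of 7 genes. The other 6 alternatives left them as they were. Of 60 gene and comparison values, 47 kept their sign under every alternative that measured the gene, 9 for 42 values and 8 for the 18 values of the 3 receptors. The other 13 were at most 0.20 in size. Of 80 differences of member probes, 27 (33.8%) exceeded 2 repeat-spot SDs with the pooled SD, against 20.4% over all probes. With the SD from gene probes only it was 43 (53.8%, against 39.3%), and with the median of the 50 nearest values 30 (37.5%, against 25.2%). The last 2 forms put a Hpgd difference, and the first of them the dim Ptgs1 probe, past that mark. No paired analysis was possible because the labels carry no replicate numbers, and leaving out a replicate was not possible with 1 array per group.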
